A study of Homo sapiens with 10 samples.

Results

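The epithelial mucins described here are 10 genes, MUC1, MUC4, MUC5B, MUC12, MUC13, MUC15, MUC16, MUC20, MUC21 and MUC22, chosen by gene name from the 58735 genes of a table of read counts. RNA was sequenced from A253, an established human cell line from a squamous cell carcinoma of the salivary gland. The groups were a control made with a guide RNA to dTomato, and the clones Cl1 and Cl10, in which a pair of guides directed Cas9 to delete exon 2 of DUSP1. DUSP1 encodes a phosphatase that switches off MAP kinases. According to the study both clones are heterozygous for the deletion, yet neither showed DUSP1 protein. The study proposes that inactivating indels in the undeleted alleles could account for this. By its methods each is a single cell clone. A difference between a clone and the control therefore cannot be told apart from a difference between cells of the starting line. Whether the control was a pool or a clone is not given in the sources used here. All groups were transduced with guide and Cas9 lentiviruses and were grown in the same serum-containing medium. Each group had 2 libraries, and the libraries of a second knockout experiment were not analysed here. Total counts were 66584988 and 53223425 (control), 70986593 and 49840300 (Cl1), and 57635596 and 47016495 (Cl10), replicate 1 first.

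Mucins are long glycoproteins whose repeats are densely covered with O-linked sugars. Secreted, gel-forming mucins such as MUC5B assemble into the mucus that coats the mouth and airways, and MUC5B is a main mucin of the mucous acini of salivary glands. Membrane mucins such as MUC1, MUC4 and MUC16 stay anchored at the apical cell surface, where they form a barrier, can be shed, and carry cytoplasmic tails that take part in signalling. Membrane mucins are made by glandular and ductal epithelia and also by stratified squamous mucosa, whereas keratinizing squamous epithelium relies on a cornified layer.

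The targeted gene was examined first. DUSP1 (ENSG00000120129, chr5:172768096-172771195 on hg38) had 744 and 635 normalised counts in the control libraries, 304 and 354 in Cl1, and 495 and 415 in Cl10. Normalised counts are read counts scaled with TMM factors to the mean library total of 57547900. All 4 clone libraries lay below both control libraries, and the Cl1 libraries lay below those of Cl10. DUSP1 stood at a log2 fold change of -1.07 in Cl1 (SE 0.149, adjusted p = 0.000292) and -0.59 in Cl10 (SE 0.134, adjusted p = 0.0113), with edgeR's quasi-likelihood test and Benjamini-Hochberg adjustment over all genes tested. A gene was called when its adjusted p was under 0.05 and its absolute log2 fold change above 1, so that DUSP1 was called in Cl1 and passed only the limit on p in Cl10. The Cl1 value fell inside the fold limit when control replicate 1 (-0.95) or Cl1 replicate 1 (-0.96) was left out. With the median of the 50 nearest tested genes on the chromosome subtracted, DUSP1 was at -0.79 in Cl1 and -0.685 in Cl10. Cl10 against Cl1 was then at 0.106, against 0.482 without the subtraction. Without Cl10 replicate 2 the value in Cl10 passed neither limit (-0.48, edgeR adjusted p = 0.0794). Counts per gene do not show whether exon 2 was present in the transcripts. The labels do not say whether the 2 libraries of a group came from separate cultures, so p-values measure only the spread between these libraries, which may be technical.

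Of the 10 mucin genes, 6 had enough reads for a test in at least 1 comparison with the control, and 4 did not. In Cl1, 5 were tested, of which 3 were called higher (MUC1, MUC16 and MUC20) and 0 lower, beside 4.27% of all 20153 genes tested called higher and 3.27% called lower. At an unadjusted p under 0.05 the same edgeR fit gave 1 lower mucin, MUC12, and DESeq2 called 0 lower. In Cl10, 6 were tested, of which MUC4 was called higher and MUC5B lower, beside 5.98% of 19875 genes called higher and 7.44% called lower. The median log2 fold change was 1.22 over the 5 mucins tested in Cl1 and 0.31 over the 6 tested in Cl10, against -0.01 for all genes in each comparison. MUC4 is in the second median only, and over the other 5 the middle value in Cl10 was that of MUC20, 0.10. Between the clones, 1 mucin was called higher in Cl10 than in Cl1 (MUC4) and 2 lower (MUC5B and MUC20), beside 4.47% and 6.28% of 19818 genes. The members' median there was -0.74, and that of all genes 0.00. Both clones were compared with the same control libraries, so their fold changes share any deviation of those libraries, and the values of each clone are given side by side. MUC4 passed the filter on low counts only where Cl10 was among the libraries fitted, and mucins low in all libraries of a comparison are not in these counts. In RNA from whole cultures, fewer cells that express a gene and less of its RNA per cell cannot be told apart.

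**Figure D1:**
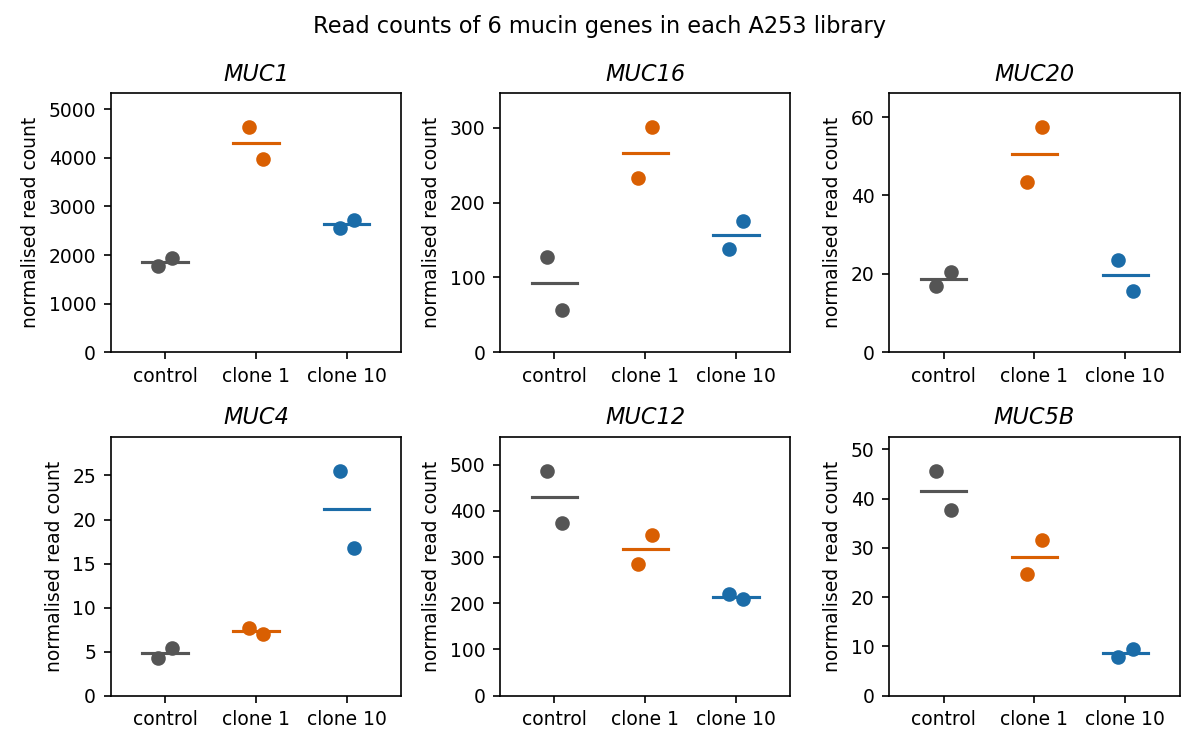
Normalised read counts (vertical axes, each from 0) of the 6 mucin genes that were tested, in the 2 libraries of the control, Cl1 and Cl10 (points), with the group mean as a line. MUC1, MUC16 and MUC20 lay higher in Cl1 than in the control in every library, MUC4 lay highest in Cl10, and MUC12 and MUC5B lay lowest in Cl10.

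MUC1, the transmembrane mucin found on most simple epithelia, was by far the most abundant of the 10. Its gene (ENSG00000185499) lies at chr1:155185824-155192916 on the minus strand. It had 1765 and 1933 normalised counts in the control, 4632 and 3981 in Cl1, and 2551 and 2718 in Cl10. The groups did not overlap, with the control lowest and Cl1 highest. MUC1 was called higher in Cl1, by 2.33-fold (log2 fold change 1.22, SE 0.119, edgeR adjusted p = 1.8e-05). In Cl10 it was 1.43-fold higher (0.52, SE 0.0867, edgeR adjusted p = 0.00347), which passed the limit on p but not the fold limit. Between the clones, the log2 fold change of Cl10 against Cl1 was -0.71 (SE 0.0744, edgeR adjusted p = 7.36e-06). Leaving out any 1 library kept the value in Cl1 between 1.11 and 1.33. The 10 nearest tested genes, all within 47 kb, had log2 fold changes from -0.62 to 0.61 in Cl1 with 0 called, and from -0.58 to 0.23 in Cl10 with 0 called. THBS3, which lies 2.7 kb from MUC1, had 0.61 in Cl1 and -0.58 in Cl10. Between the clones, 2 of these neighbours were called lower in Cl10, THBS3 (-1.18) and THBS3-AS1 (-1.12). The median over the 50 nearest genes reached 0.21 in Cl1, and MUC1 with this median subtracted was at 1.01. With the same subtraction MUC1 was at -0.44 in Cl10 against Cl1.

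MUC16, the very large transmembrane mucin that carries the CA125 epitope, was also called higher in Cl1. Its gene (ENSG00000181143, chr19:8848844-9010390, minus strand) has 44165 bases of exon, so its counts are spread over a long transcript. It had 128 and 57.0 normalised counts in control replicates 1 and 2, 233 and 301 in Cl1, and 138 and 176 in Cl10. Both Cl1 libraries lay above the other 4, and both Cl10 libraries lay above both control libraries. The control libraries lay further apart than those of either clone in proportion to their level. The log2 fold change was 1.50 in Cl1, or 2.83-fold (SE 0.288, edgeR adjusted p = 0.00249), and 0.74 in Cl10 (SE 0.351, edgeR adjusted p = 0.131). The control decided the size, and in Cl10 also the side of the fold limit. Leaving out control replicate 1 gave 2.22 in Cl1 and 1.45 in Cl10, both past the fold limit. Leaving out control replicate 2 gave 1.06 in Cl1 and 0.29 in Cl10, the latter inside the fold limit. With 1 control library in such a fit, the spread comes from the libraries of the clone only. Cl10 lay below Cl1 by a log2 fold change of -0.76 (SE 0.18, edgeR adjusted p = 0.00353), inside the fold limit. Of the 10 nearest tested genes, 0 were called in Cl1, with values from -0.49 to 0.27. In Cl10, 1 of them (MYO1F, -1.16) was called lower, and the highest was at 0.55.

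MUC1, MUC16 and MUC20 were called higher in the same clone, and the 250 bases before the transcription starts of the members were examined. The sequences are from RefSeq (GRCh38.p14), which held a promoter for 6 of the 10 members, in 8 entries, and none for MUC5B, MUC15, MUC20 and MUC21. Motifs searched on both strands were GGGCGG (GC box), TGANTCA (AP-1), CACGTG (E-box), ACAATG (SOX) and TTCNNNGAA (STAT). In the sequences below, read 5′ to 3′ on the strand of the gene, capitals mark every match. MUC1 lies at chr1:155192916-155193165, MUC16 at chr19:9010410-9010659, MUC4 at chr3:195811930-195812179 (minus strand for all 3) and MUC12 at chr7:100969315-100969564 (plus strand).
MUC1: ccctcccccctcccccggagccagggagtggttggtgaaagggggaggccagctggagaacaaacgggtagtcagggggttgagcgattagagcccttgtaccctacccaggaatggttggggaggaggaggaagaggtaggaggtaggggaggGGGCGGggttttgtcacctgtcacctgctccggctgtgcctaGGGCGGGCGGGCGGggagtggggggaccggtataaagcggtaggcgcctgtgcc
MUC16: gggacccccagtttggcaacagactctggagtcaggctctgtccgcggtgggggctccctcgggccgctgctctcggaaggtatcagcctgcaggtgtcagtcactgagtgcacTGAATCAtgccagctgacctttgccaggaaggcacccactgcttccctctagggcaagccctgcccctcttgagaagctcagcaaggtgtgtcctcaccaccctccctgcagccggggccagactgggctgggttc
MUC4: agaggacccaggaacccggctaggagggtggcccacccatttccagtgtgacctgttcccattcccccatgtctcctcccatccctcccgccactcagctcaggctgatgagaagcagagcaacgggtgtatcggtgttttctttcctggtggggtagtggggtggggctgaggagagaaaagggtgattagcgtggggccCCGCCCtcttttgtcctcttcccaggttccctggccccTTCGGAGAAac
MUC12: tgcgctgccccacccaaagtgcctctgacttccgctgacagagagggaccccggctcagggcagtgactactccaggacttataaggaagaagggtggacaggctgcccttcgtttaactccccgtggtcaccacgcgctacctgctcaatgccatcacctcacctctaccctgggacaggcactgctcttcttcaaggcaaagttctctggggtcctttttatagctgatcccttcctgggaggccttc
The MUC1 promoter held 4 GC boxes, of which 3 overlap each other. The RefSeq start of the MUC16 promoter shown lies 19 bases from the GENCODE start. This promoter held 1 AP-1 match and no GC box, and the second RefSeq start of MUC16 held 1 GC box. The MUC4 promoter held 1 GC box and 1 STAT match, and the MUC12 window held no match to any of the 5 motifs. Of the members not shown, MUC13, which was at or near 0 in every library, also held 1 AP-1 match. Its RefSeq start lies 19068 bases from the GENCODE start. The MUC22 window held no match. Among all 35116 RefSeq promoter windows of the same length, 42.6% held a GC box, 6.57% an AP-1 match, 6.34% an E-box, 9.29% a SOX match and 6.57% a STAT match. A match is a description of the letters only, and binding of a factor was not tested.

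MUC20, a small membrane-associated mucin, was low but called higher in Cl1. The gene (ENSG00000176945, chr3:195720884-195741123, plus strand) had 16.9 and 20.4 normalised counts in the control, 43.5 and 57.4 in Cl1, and 23.6 and 15.6 in Cl10. The Cl1 libraries lay above the other 4, and the Cl10 libraries lay on either side of the control. The log2 fold change was 1.43 in Cl1 (2.69-fold, SE 0.353, edgeR adjusted p = 0.0108) and 0.10 in Cl10 (SE 0.392, edgeR adjusted p = 0.862). Cl10 was called lower than Cl1, at -1.33 (SE 0.352, edgeR adjusted p = 0.00733). Without Cl1 replicate 2 the call in Cl1 was lost (1.23, edgeR adjusted p = 0.0732), and in Cl10 the direction turned without control replicate 1 (-0.05) and without Cl10 replicate 1 (-0.24).

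The reads of MUC20 could not be assigned to it with certainty. Of the exon bases of MUC20, 27.1% lie under exons of MUC20-OT1, a non-coding gene on the same strand, and of all 150-base stretches of its main transcript 30.2% also occur in a MUC20-OT1 transcript and 33.3% in the pseudogene MUC20P1, 54.2% in either. MUC20-OT1 was far more abundant, with 1042 and 1148 normalised counts in the control, 1024 and 1195 in Cl1, and 814 and 850 in Cl10, and it stood at a log2 fold change of 0.02 in Cl1 (edgeR adjusted p = 0.927) and -0.39 in Cl10 (edgeR adjusted p = 0.016). MUC20P1 had 6 and 2 raw counts in the control, 12 and 10 in Cl1, and 3 and 7 in Cl10, and a log2 fold change of 1.51 in Cl1 that did not pass the limit on p (edgeR adjusted p = 0.107). How the authors' counting treated reads that match several genes is not given in the sources used here.

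MUC4, a large transmembrane mucin known as a partner of the receptor ERBB2, lies 5.6 kb from MUC20 and differed from it. Its gene (ENSG00000145113, chr3:195746765-195811973, minus strand) had 5 and 5 raw counts in the control, 9 and 6 in Cl1, and 26 and 14 in Cl10. On the normalised scale these were 4.23 and 5.38, 7.68 and 7.03, and 25.5 and 16.8. Both Cl10 libraries lay above the other 4, at a depth of few reads. MUC4 was called higher in Cl10, by 4.43-fold (log2 fold change 2.15, SE 0.502, edgeR adjusted p = 0.0126), and higher in Cl10 than in Cl1 (1.52, SE 0.497, edgeR adjusted p = 0.0218). In Cl1 it had too few reads for a test. The call against the control was lost with DESeq2 (2.16, adjusted p = 0.0586) and without Cl10 replicate 1 (1.80, edgeR adjusted p = 0.134). The call against Cl1 was lost with DESeq2 (1.54, adjusted p = 0.159) and without Cl1 replicate 1 (1.59), Cl1 replicate 2 (1.45) or Cl10 replicate 1 (1.17). The 10 nearest genes, of which 9 had a test in that clone, had a median of -0.39 with 1 called lower.

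Much of the coding sequence of MUC4 is a repeat, which limits how its reads can be placed. A 48-base unit repeated in tandem, at 80% identity or more between neighbouring copies, covered 9850 of 16236 coding bases in the reference, or 60.7%, and 10.7% of the 150-base stretches of the transcript occurred in it more than 1 time. The unit at chr3:195785074-195785121 (GRCh38, minus strand, exon 2) is shown because it was the first with the highest identity to the next copy. It occurs 3 times without a difference, and it is read 5′ to 3′ on the strand of the gene.
MUC4 repeat unit: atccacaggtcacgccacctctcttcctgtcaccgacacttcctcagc
In MUC12, 40.7% of the 150-base stretches occurred more than 1 time in its own transcript, in MUC5B 12.4%, in MUC20 15.7% and in MUC16 0.087%, whereas MUC1 had 0. Apart from MUC20, 0% of the stretches of any member occurred in a transcript of another gene. Repeats within a gene leave the gene known but can make a read's place ambiguous. Whether the authors' counting kept such reads is not given in the sources used here. The number of copies in A253 was not measured.

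MUC12, a transmembrane mucin of the mucin cluster on chromosome 7, was the second most abundant member. Its gene (ENSG00000205277, chr7:100969565-101018939, plus strand) had 487 and 373 normalised counts in the control, 285 and 349 in Cl1, and 220.1 and 209 in Cl10. Both clones lay below both control libraries, and Cl10 lay below Cl1. The log2 fold change was -0.45 in Cl1 (SE 0.173, edgeR adjusted p = 0.0783), which did not pass the test, and -1.0 in Cl10 (SE 0.162, edgeR adjusted p = 0.00297). The value in Cl10 lay at the fold limit without passing it, and it was past the limit without control replicate 2 (-1.18) and without Cl10 replicate 1 (-1.03). Without control replicate 1 it was -0.80. The antisense gene MUC12-AS1 lies under 1.45% of the exon bases of MUC12 and had log2 fold changes of -0.57 (Cl1, edgeR adjusted p = 0.104) and -0.14 (Cl10, edgeR adjusted p = 0.615). The neighbour MUC3A, a mucin 1.2 kb away, had 1255 and 1291 normalised counts in the control, 1138 and 1277 in Cl1 and 1074 and 1103 in Cl10. MUC3A passed no limit, at -0.08 in Cl1 (edgeR adjusted p = 0.677) and -0.22 in Cl10 (edgeR adjusted p = 0.0705). ACHE, on the other side of MUC3A, was the 1 of the 10 nearest tested genes called lower in Cl10, at -1.03.

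MUC5B was the only gel-forming mucin among the 10, and it moved in the other direction from MUC4 in Cl10. Its gene (ENSG00000117983, chr11:1223066-1262172, plus strand) had 45.7 and 37.6 normalised counts in the control, 24.8 and 31.6 in Cl1, and 7.86 and 9.57 in Cl10. Each library of Cl10 lay below all others, and the Cl1 libraries lay below the control libraries. MUC5B was called lower in Cl10, by 4.76-fold (log2 fold change -2.25, SE 0.375, edgeR adjusted p = 0.00323). In Cl1 the value was -0.58 (SE 0.336, edgeR adjusted p = 0.232), which did not pass the test. Cl10 was called lower than Cl1 as well, at -1.67 (SE 0.45, edgeR adjusted p = 0.00773), a call that was lost with DESeq2 (-1.68, adjusted p = 0.0725) and without Cl10 replicate 1 (-1.52, edgeR adjusted p = 0.063). The antisense gene MUC5B-AS1 and the microRNA gene MIR6744 inside MUC5B had 0 counts in every library. The nearest tested gene, TOLLIP, 12.2 kb away, stood at a log2 fold change of 0.60 (Cl1) and 0.70 (Cl10). Of the 10 nearest tested genes, 1 (TOLLIP-DT, -1.18) was called lower in Cl10.

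The other 4 members, all transmembrane mucins, were at or near 0. MUC13 had 1 read in control replicate 2 and 0 in the other libraries, and MUC21 had 2 reads in control replicate 1 and 0 in the others. MUC15 had 1 and 0 raw counts in the control, 1 and 0 in Cl1, and 2 and 0 in Cl10. MUC22 had 1 and 0 in the control, 0 and 1 in Cl1, and 0 and 4 in Cl10. Except for the 4 reads of MUC22 in Cl10 replicate 2, these counts lay under a floor of 3 counts, which corresponds to 2.54 to 3.59 normalised counts according to the library and covers counting error only. No fold is given for them. ANO3, which overlaps MUC15 on the opposite strand, had at most 3 counts in any library.

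Between genes, levels were compared as RPKM (reads scaled to library total and to exon length, with the same TMM factors). Exon length here is that of all exons of a gene's transcripts joined. For MUC20 this is 6837 bases, whereas its main transcript has 2493. Its rank can therefore depend on this choice, and on the stretches it shares with other genes. In the control MUC1 stood at 13.4 ± 0.858 RPKM (SD, n = 2), MUC12 at 0.435 ± 0.0817 and MUC20 at 0.0475 ± 0.00631. MUC5B stood at 0.0389 ± 0.00532 RPKM and MUC16 at 0.0363 ± 0.0197, whose spread covers MUC5B and MUC20, and MUC4 was lowest of the 6 at 0.00397 ± 0.00067. In Cl1, MUC1 reached 31.2 ± 3.33 RPKM and MUC12 had 0.321 ± 0.0457. MUC20 (0.128 ± 0.0249 RPKM) and MUC16 (0.105 ± 0.0189) differed by less than the SD of MUC20 but more than that of MUC16, and MUC5B (0.0263 ± 0.00453) and MUC4 (0.00608 ± 0.000384) stood below them. In Cl10, MUC1 had 19.1 ± 0.854 RPKM and MUC12 0.217 ± 0.00765, and MUC16 (0.0617 ± 0.0107) and MUC20 (0.0497 ± 0.0144) again differed by less than the SD of MUC20 but more than that of MUC16. MUC4 (0.0175 ± 0.00514 RPKM) stood above MUC5B (0.00814 ± 0.00113) in Cl10, the reverse of their order in the control and in Cl1. MUC1 held between 95.2% and 98.5% of the summed RPKM of the 10 genes in every library. That sum was 13.4 and 14.5 RPKM in the control, 34 and 29.5 in Cl1, and 18.8 and 20 in Cl10, so that it followed MUC1.

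**Figure D2:**
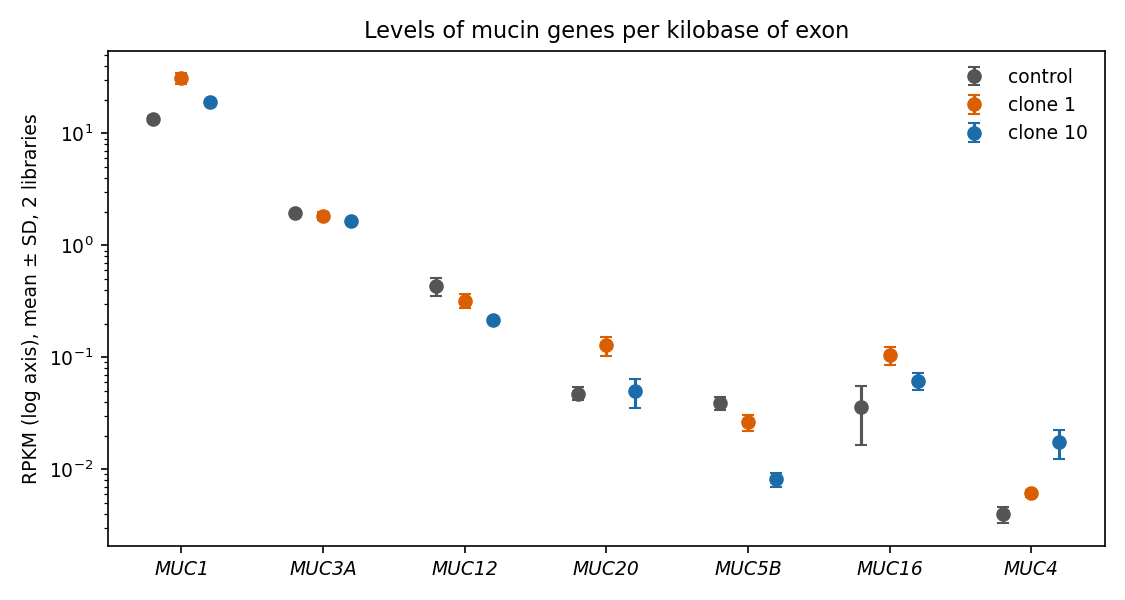
Mean level of each mucin gene in RPKM on a log axis, with the SD over 2 libraries as bars, for the control, Cl1 and Cl10. MUC1 lies between 13.4 and 31.2 RPKM, and MUC4 and MUC5B change places between the control and Cl10. MUC3A, which is not one of the 10, is shown for scale.

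**Figure D3:**
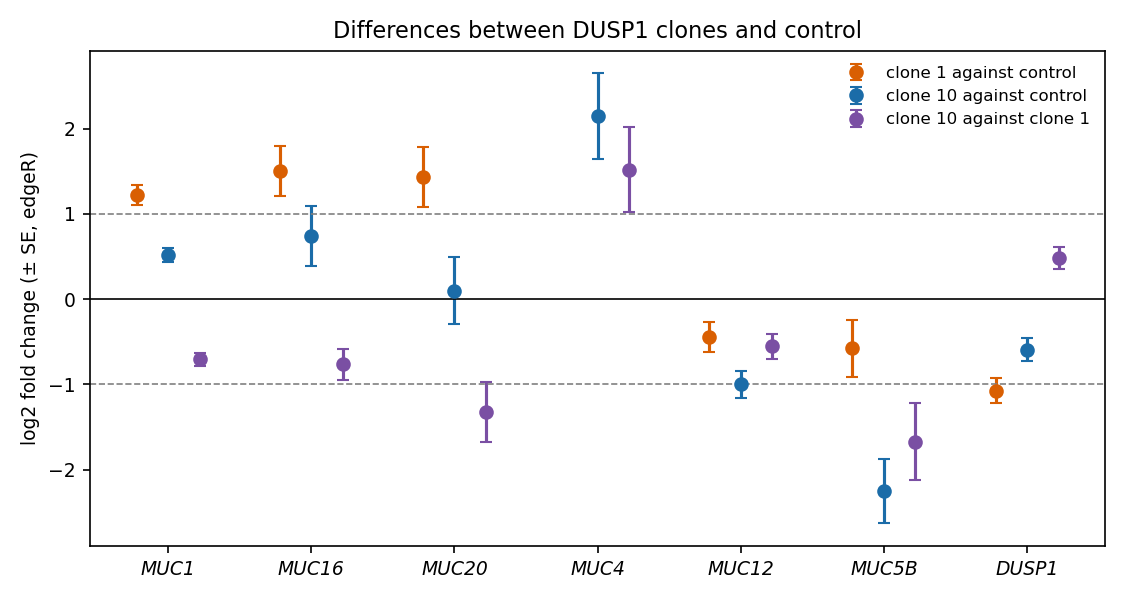
Log2 fold changes with their SE from edgeR for the 6 mucin genes tested and for DUSP1, in Cl1 and in Cl10 against the control and in Cl10 against Cl1 (colours). Dashed lines mark the fold limit at 1 and -1; MUC1, MUC16 and MUC20 lie above it in Cl1, MUC4 above and MUC5B below it in Cl10, and MUC4 has no value in Cl1.

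**Figure D4:**
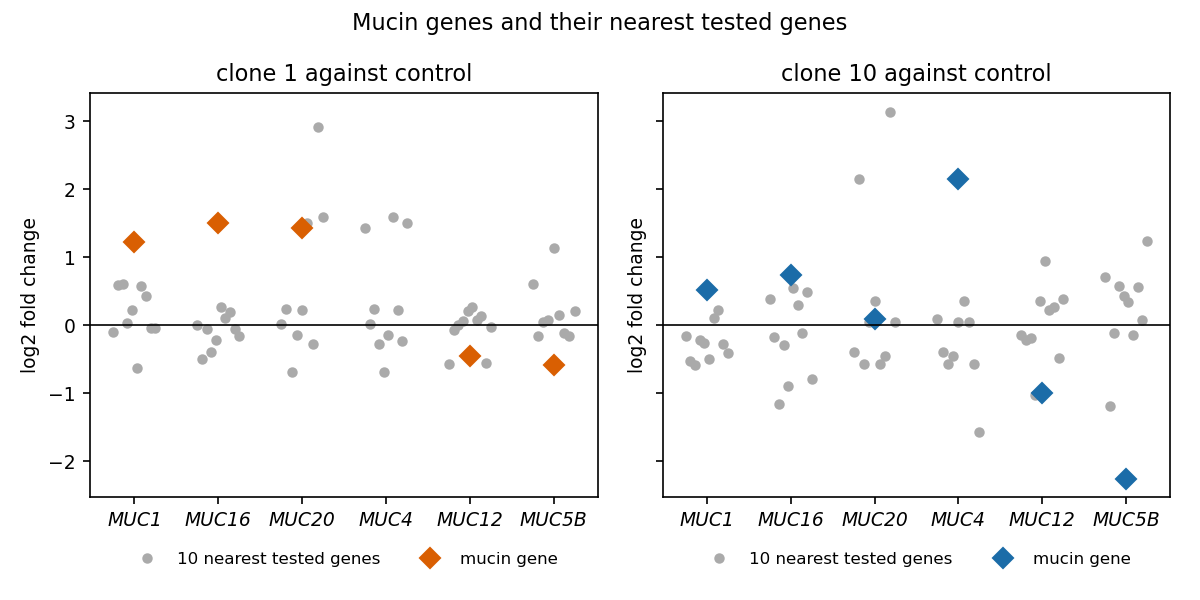
Log2 fold changes of the 6 mucin genes (diamonds) and of the 10 nearest tested genes of each (grey points), in Cl1 and Cl10 against the control. MUC1 and MUC16 lie above all their neighbours in Cl1, and MUC5B lies below all of its neighbours in Cl10.

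The position of MUC20 and MUC4 on chromosome 3 was described further because genes near them were called. In the plot of nearest genes, APOD was called higher in both clones (2.92 in Cl1 and 3.14 in Cl10), TNK2-AS1 was called higher in Cl1 (1.59), and the pseudogene PPP4R2P2, on the side of MUC4, was called lower in Cl10 (-1.56, edgeR adjusted p = 0.0116). TNK2, 51.4 kb from MUC4, had -0.28 in Cl1 and -0.45 in Cl10. These neighbours were named after their values were seen.

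The counts of the lists below stand beside the shares of all genes given for the mucins, 4.27% called higher and 3.27% lower in Cl1 and 5.98% and 7.44% in Cl10. At an unadjusted p under 0.05, edgeR gave 3658 genes higher and 3857 lower of 20153 in Cl1, and 4967 and 5231 of 19875 in Cl10. Among 12 other mucin and mucin-like genes, 4 were tested in Cl1 with 0 called (2 at an unadjusted p under 0.05 with edgeR, 0 with DESeq2) and 5 in Cl10 with 1 called higher. Their median log2 fold changes were 0.11 and 0.28. The call was MUCL1, a small mucin-like secreted protein of glands, with 1.69 and 5.38 normalised counts in the control, 13.7 and 3.51 in Cl1 and 14.7 and 14.4 in Cl10. Its log2 fold change in Cl10 was 2.09 (edgeR adjusted p = 0.0309). The call was lost without control replicate 1 (1.41), without Cl10 replicate 1 (2.06) or without Cl10 replicate 2 (2.10). Without control replicate 2 the log2 fold change of MUCL1 was 3.01. DESeq2 called 0 of the list, and no DESeq2 value of MUCL1 was available in Cl10. Like MUC4, MUCL1 passed the filter on low counts only with Cl10, where it was high, and had no test in Cl1 against the control. The gel-forming mucins MUC2, MUC5AC and MUC19 and the salivary mucin MUC7 had too few reads for a test in either clone, and MUC6 did not pass the limit on p (1.14 in Cl1, edgeR adjusted p = 0.0824, and 0.43 in Cl10, edgeR adjusted p = 0.497). CD164, a sialomucin, had the most RPKM of that list in every group, at 30.4 in the control, 37.1 in Cl1 and 36.9 in Cl10.

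Mucin-type O-glycans are started by the GalNAc-transferases of the GALNT family. Of 20 such genes, 16 were tested in Cl1 and 0 were called, although 5 higher and 3 lower had an unadjusted p under 0.05 with edgeR; DESeq2 also called 0. In Cl10, 15 were tested, of which edgeR called 0 higher (8 at an unadjusted p under 0.05) and 1 lower, and DESeq2 called 1 higher and 1 lower. The median was 0.30 in Cl1 and 0.33 in Cl10. The gene called was GALNT12, with 873 and 875 normalised counts in the control, 634 and 625 in Cl1 and 425 and 385 in Cl10, and a log2 fold change of -1.10 in Cl10 (SE 0.104, edgeR adjusted p = 0.000344).

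Enzymes that extend, branch or cap O-glycans numbered 19, with 16 tested in each clone. In Cl1, 1 was called higher and 1 lower, with a median of 0.04, and in Cl10, 2 higher and 2 lower, with a median of -0.12. ST3GAL1, which adds sialic acid to core 1 O-glycans, had 995 and 932 normalised counts in the control, 379 and 302 in Cl1 and 323 and 342 in Cl10, and was called lower in Cl1 (-1.49, SE 0.146, edgeR adjusted p = 1.87e-05) and in Cl10 (-1.53, SE 0.105, edgeR adjusted p = 0.000122). All 4 clone libraries lay far below both control libraries. GAL3ST2, a galactose sulfotransferase, was called higher in Cl1 (1.16, SE 0.289, edgeR adjusted p = 0.0111). FUT3, a Lewis fucosyltransferase, was called higher in Cl10 (1.26, SE 0.307, edgeR adjusted p = 0.0153), inside the fold limit without control replicate 1 (0.93). CHST4, which sulfates N-acetylglucosamine, had 3.38 and 3.23 normalised counts in the control, 2.56 and 0 in Cl1 and 26.5 and 10.8 in Cl10, and was called higher in Cl10 (2.49, edgeR adjusted p = 0.0202) but not without Cl10 replicate 1 (1.67, edgeR adjusted p = 0.267). FUT3 was the 1 gene of the list that DESeq2 called higher in Cl10, and no DESeq2 value of CHST4 was available there. As with MUC4, CHST4 had too few reads for a test in Cl1 against the control and passed the filter only with Cl10, where it was high. C1GALT1, the enzyme that makes core 1, was named after its values were seen, as the second gene called lower in Cl10. It had 1673 and 1693 normalised counts in the control, 1399 and 1514 in Cl1 and 753 and 818 in Cl10. C1GALT1 stood at a log2 fold change of -0.21 in Cl1 (edgeR adjusted p = 0.189) and -1.10 in Cl10 (SE 0.0892, edgeR adjusted p = 0.000208), and with the median of the 50 nearest genes subtracted the latter was -0.25.

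The mucous cell list held transcription factors, folding factors and products secreted with mucins, 21 genes in all. Only 5 were tested in Cl1, where 1 was called higher and 0 lower, and 6 in Cl10, where 0 were called higher and 1 lower. The medians were 0.53 and 0.16. AGR2, a protein of the endoplasmic reticulum that is needed for mucin folding in goblet cells, had 49.1 and 67.7 normalised counts in the control, 1017 and 907 in Cl1, and 93.3 and 86.1 in Cl10. Both Cl1 libraries lay far above the other 4. The log2 fold change was 4.06 in Cl1, or 16.7-fold (SE 0.185, edgeR adjusted p = 5.71e-08), and 0.64 in Cl10 (edgeR adjusted p = 0.0684), and Cl10 lay below Cl1 by -3.42 (SE 0.127, edgeR adjusted p = 2.09e-09). The median of the 50 nearest genes was -0.96 in Cl10 and -0.94 between the clones, and with it subtracted AGR2 was at 1.60 in Cl10 and differed between the clones by -2.48. FCGBP, a protein of the mucus gel, was called lower in Cl10 (-1.18, SE 0.271, edgeR adjusted p = 0.0124), and its value was inside the fold limit without control replicate 1 (-0.78) and with the median of the 50 nearest genes subtracted (-0.99). It had 196 and 120.4 normalised counts in the control, 73.4 and 94.9 in Cl1, and 67.8 and 73.0 in Cl10. SPDEF, a factor of goblet and mucous cells, was too low for a test, and the trefoil factors TFF1, TFF2 and TFF3 and the factor FOXA2 had 0 counts in every library.

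Partners, receptors and sheddases of membrane mucins, 13 genes that include ERBB2, EGFR and ADAM17, were all tested and 0 were called in either clone. At an unadjusted p under 0.05, edgeR gave 6 higher and 0 lower in Cl1 and 4 higher and 2 lower in Cl10, and DESeq2 called 0. Their medians were 0.23 and 0.18. Of 8 epithelial transcription factors 7 were tested, with 1 called higher in Cl1 and 0 called in Cl10 (3 higher and 3 lower at an unadjusted p under 0.05, and 0 with DESeq2), and medians of 0.36 and 0.20. The call was OVOL1, which had 471 and 401 normalised counts in the control, 1005 and 990 in Cl1 and 696 and 773 in Cl10, and a log2 fold change of 1.19 in Cl1 (SE 0.134, edgeR adjusted p = 5.96e-05).

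Markers of glandular and of squamous epithelium are given beside the mucins. Of 22 salivary acinar and ductal markers, 8 were tested in each clone. In Cl1, 1 was called higher (KRT7, 1.59, SE 0.121, edgeR adjusted p = 2.45e-06) and 0 lower. In Cl10, SLC12A2 was called higher (1.25, SE 0.0967, edgeR adjusted p = 0.000179) and KRT8 lower (-1.33, SE 0.0997, edgeR adjusted p = 0.000161). With the median of the 50 nearest genes subtracted KRT8 was at -0.81, inside the fold limit. The medians of the list were 0.16 and -0.70. KRT7, a keratin of ducts, had 767 and 898 normalised counts in the control, 2603 and 2393 in Cl1, and 463 and 519 in Cl10, so that Cl1 lay above and Cl10 below the control. In Cl10 KRT7 was at -0.76, inside the fold limit, and at -0.39 with the nearest genes' median subtracted. The same subtraction took KRT18 in Cl10 from -0.85 to -0.33, and KRT19 the other way, from -0.36 to -0.67. The summed level of the list was 1070 and 1210 RPKM in the control, 1410 and 1300 in Cl1, and 789 and 752 in Cl10, most of it KRT19. The salivary secretory genes HTN1, HTN3, SMR3A, SMR3B and PIP had 0 counts in every library, and AQP5 was too low for a test. Their part in the differences of the mucins was not tested.

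Of 17 squamous markers 15 were tested in each clone, with 4 called higher and 0 lower in Cl1 and 5 higher and 0 lower in Cl10, and medians of 0.36 and 0.22. Those with the largest differences were KRT1 (3.45 in Cl1 and 5.10 in Cl10), IVL (3.86 and 4.56), SPRR3 (3.02 and 4.21) and KRT4 (2.39 and 2.76), each called in both clones with edgeR. SPRR3 rests on 13 and 3 raw counts in the control, and without control replicate 1 it was 4.20 in Cl1 and 5.38 in Cl10. The fifth gene called in Cl10 was SPRR1B (1.69), named after its values were seen. IVL, a precursor of the cornified envelope, had 21.2 and 31.2 normalised counts in the control, 345 and 406 in Cl1, and 591 and 626 in Cl10. Other squamous genes moved differently: TGM1, which crosslinks the cornified envelope, was at 0.60 in Cl1 (edgeR adjusted p = 0.00917) and -0.83 in Cl10 (edgeR adjusted p = 0.00589), and was called lower in Cl10 than in Cl1 (-1.43, edgeR adjusted p = 6.67e-07). KRT10 was at -0.36 in Cl1 (edgeR adjusted p = 0.0392) and 0.10 in Cl10 (edgeR adjusted p = 0.568). The basal keratins KRT5 (0.36 and -0.02) and KRT14 (0.05 and 0.22) were not called. The summed level of the squamous list was 3680 and 3810 RPKM in the control, 4170 and 4300 in Cl1 and 4170 and 3960 in Cl10, most of it KRT14 and KRT5, and its part in the mucin differences was not tested.

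Markers of cells that a culture of A253 should not hold were listed as well, 12 genes of fibroblasts, endothelium, leukocytes, melanocytes and hepatocytes. In Cl1, 5 were tested and 0 called (1 higher and 0 lower at an unadjusted p under 0.05 with edgeR, 0 with DESeq2), with a median of 0.10. In Cl10, 6 were tested with 1 called higher (CDH5, 2.28, edgeR adjusted p = 0.0229) and 1 lower (PMEL, -1.36, edgeR adjusted p = 0.000616), with a median of -0.33. The endothelial CDH5 had 5.92 and 5.38 normalised counts in the control, 6.83 and 2.34 in Cl1 and 40.3 and 14.4 in Cl10, and its call was lost without Cl10 replicate 1 (1.33, edgeR adjusted p = 0.288). CDH5 also passed the filter only with Cl10, where it was high, and PMEL lost its call with the median of the 50 nearest genes subtracted (-0.87). LUM, of fibroblasts, had 0 counts in every library and PECAM1, of endothelium, at most 2, but other markers of the same cells were present. COL1A1 was the most abundant of the list, and COL3A1 had 1087 and 1004 normalised counts in the control, 874 and 975 in Cl1, and 672 and 765 in Cl10. The endothelial VWF had 246 and 152 in the control, 320 and 444 in Cl1, and 197 and 168 in Cl10, at 0.93 in Cl1 (edgeR adjusted p = 0.0102) and -0.13 in Cl10 (edgeR adjusted p = 0.694).

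**Figure D5:**
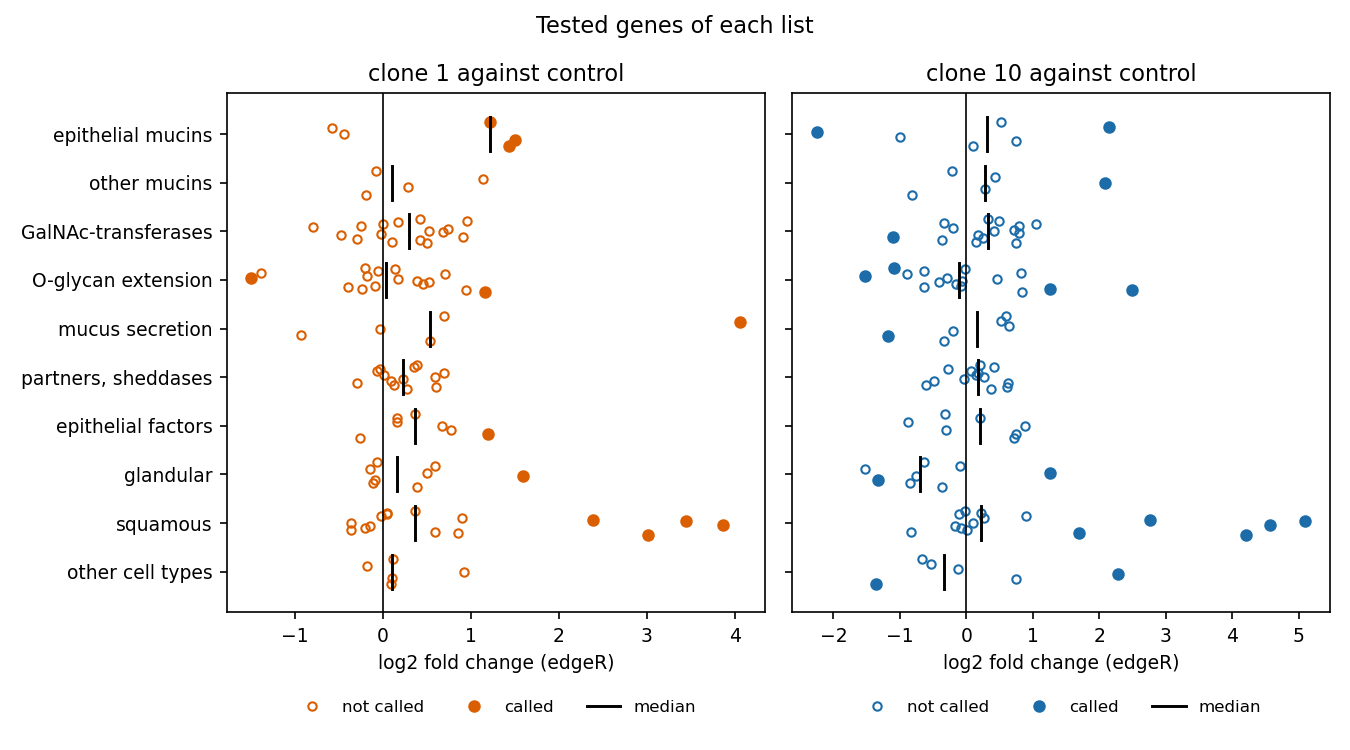
Log2 fold changes of every tested gene of the 10 lists, in Cl1 and in Cl10 against the control, with called genes filled and the list median as a line. AGR2 stands apart in Cl1 at 4.06, and the squamous genes KRT1, IVL, SPRR3 and KRT4 stand apart in both clones.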

How the data were processed

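The counts per gene deposited by the authors were used as given; labels name HISAT2, StringTie and DESeq without versions, the paper names HTSeq and DESeq2, and the gene annotation is not given in the sources used here. Genes were filtered with edgeR's filterByExpr, scaled with TMM factors, and tested with edgeR 4.0.16 (quasi-likelihood, R 4.3.3), each comparison fitted with its own 4 libraries. Adjusted p is Benjamini-Hochberg over all genes tested, and the limits for a call were 0.05 for it and a 2-fold difference. SE is the absolute log2 fold change before edgeR's shrinkage, over the square root of F, whereas the log2 fold changes printed are after it. DESeq2 1.42.0 was an alternative, besides other scalings, filters, a replicate block and leaving out each library. A fit without 1 library has 1 library in that group, so that its spread comes from the other group only. Exon lengths are from GENCODE v44. Members and lists were chosen with earlier results of these data known. Of each list, up to 4 called genes with the largest differences were named, and others are marked. Libraries of the other experiment were left out, as they belong to another knockout.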

Additional observations from a re-analysis of the deposited data

Results flagged for a closer look

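In edgeR's test of the clones against each other, which does not use the shared control libraries, all 6 mucins tested passed the limit on p, beside 9706 of all 19818 genes tested, and 3 also passed the fold limit, beside 2131. MUC5B had a log2 fold change of -1.67, MUC20 of -1.33 and MUC4 of 1.52 in this comparison, and MUC4 passed the filter on low counts only where Cl10, its high group, was fitted. The calls of MUC5B and MUC4 were lost with DESeq2 (adjusted p = 0.0725 and 0.159) and without Cl10 replicate 1. The call of MUC4 was also lost when either Cl1 library was left out.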

How the results depend on the processing

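The numbers of genes called were 1520 in Cl1, 2667 in Cl10 and 2131 between the clones, and stayed within 1.5 times of these under other scalings, filters, DESeq2, a single fit and a replicate block. Without a fold limit they were 5064, 8439 and 9706, because that limit removes most genes by its construction. Each fit without 1 library had 1 library in that group. Its p-values and calls, kept, lost or gained, rest on the spread of the other group alone. Leaving out 1 library gave 1281 to 1796, 2447 to 3030 and 1924 to 2233. The number of mucins called in Cl10 was 2, and 1 with at least 10 counts in every library, 1 with DESeq2, 3 with no filter, 3 in a single fit and 4 with no fold limit. The 1 with at least 10 counts was MUC12, as MUC4 and MUC5B were not tested there, and the 1 with DESeq2 was MUC5B. Between the clones it was 3, and 1 with at least 10 counts, 1 with DESeq2 and 6 with no fold limit. With at least 10 counts fewer genes are tested, and for DESeq2 the cause was not tested. Leaving out 1 library gave 2 to 3 mucins in Cl1, 2 to 3 in Cl10 and 1 to 3 between the clones. Of the single-gene alternatives for mucins and DUSP1, 215 kept direction and whether the gene was called, 12 lost the call, 7 gained it and 2 turned direction, both for MUC20 in Cl10 (-0.05 without control replicate 1 and -0.24 without Cl10 replicate 1; the cause was not tested), where leaving out Cl10 replicate 2 gave 0.35. Among those 215 the limit on p alone was crossed by MUC12 in Cl1 (no filter, and without control replicate 2), MUC16 in Cl10 (no filter, replicate block, and without Cl10 replicate 1), DUSP1 in Cl10 (without Cl10 replicate 2), and between the clones by MUC16 (single fit) and DUSP1 (without Cl10 replicate 1). MUC12 in Cl10 lay at the fold limit, and passed it in 6 settings: no filter (-1.02), at least 10 counts and a single fit (both -1.0), the median of the 50 nearest genes subtracted (-1.06), without control replicate 2 (-1.18) and without Cl10 replicate 1 (-1.03). Alternatives for the list genes were chosen after seeing the data: 370 kept their call and 14 lost it. Settings in which a gene had no value, such as DESeq2 for MUCL1 and CHST4 in Cl10, are not in this tally. Subtracting the nearest genes' median for AGR2 in Cl10, where it was not called, was added later still. Replicate numbers did not pair the libraries (correlations -0.0682, -0.0181 and 0.0101 over 20582 genes). Depth limits MUC4 and MUC5B in Cl10, which rest on at most 26 counts a library.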
